A study of Mus musculus with 2 samples.

Results

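The genes described here are 32 named targets of interferon gamma: 8 guanylate-binding proteins (Gbp2 to Gbp9), 7 immunity-related GTPases (Irgm1, Irgm2, Igtp, Iigp1, Tgtp1, Tgtp2 and Ifi47), 6 regulators of transcription (Irf1, Irf8, Batf2, Nlrc5, Ciita and Nmi), 5 genes of feedback and signalling (Socs1, Socs3, Jak2, Pim1 and Parp14), 5 proteasome genes (Psmb8, Psmb9, Psmb10, Psme1 and Psme2) and the adhesion gene Icam1. They were chosen by symbol from what is known of the pathway, with earlier results of these data in view, and take up 33 of the 27998 rows of the count table, because 2 rows carry the name Gbp6. One of these, ENSMUSG00000079362, held no unique molecular identifier (UMI, a tag that marks 1 captured RNA molecule) in any cell type, so Gbp6 below means ENSMUSG00000104713. The cells were live CD45+ cells, the immune cells, sorted from subcutaneous tumours and read with droplet-based 3′ RNA sequencing. The WT group was C57BL/6J mice and the CD94-KO group was C57BL/6J mice lacking CD94, the product of Klrd1 that forms inhibitory or activating receptors with NKG2 proteins on natural killer (NK) cells and some T cells, all 6 to 8 weeks old. Each group was 1 library made from 5 tumour-bearing mice with no label that separates the mice, so no difference between the groups could be tested. The tumour line and the deleted part of Klrd1 were not given in the sources used here.

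Interferon gamma, made mainly by NK cells and T cells, binds a receptor that signals through the kinases JAK1 and JAK2 to genes with GAS elements in their promoters. IRF1, induced early, acts at interferon-stimulated response elements (ISRE) and widens the response. Among the targets are 2 families of GTPases that attack the vacuoles of intracellular microbes, the subunits of the immunoproteasome that cut peptides for MHC class I, and the suppressor SOCS1, which inhibits JAK kinases and ends the signal. In tumours, macrophages that answer interferon gamma make the chemokine CXCL9 and the nitric oxide synthase NOS2.

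The filters kept 4388 cells of the WT library (36482364 UMIs, median 4768.5 per cell). They kept 4574 of the CD94-KO library (42210515 UMIs, median 7799 per cell). Cells were assigned to types by the raw UMIs of marker genes, none of which is among the 32, and a cell type named below means the cells that passed that gate. This gave 15 types with at least 10 cells in each library. The gates left 42.4% of WT and 18.1% of CD94-KO cells unassigned, at medians of 769 and 1234 UMIs. Most cells that passed gates of several lineages (440 and 423) were also left out. Cells that passed only the T cell and NK gates were kept as T cells where a T cell subtype gate was passed. The named T cell subtypes may therefore hold some NK cells or mixed barcodes, and their number was not counted. Klrd1 stood at 143 UMIs per 1e6 of the summed total (CPM) over all kept WT cells and 78.8 CPM in CD94-KO, and since the deleted exons are not known, 3′ tags do not check the label. The 46 and 28 cells of the non-immune gate, set on collagen and matrix genes, had Ptprc, which encodes CD45, at 13.4 and 11.5 CPM, against at least 246 CPM in every other type, so they do not match the sort. As a measure of RNA from other cells, the macrophage genes C1qa, C1qb and Lyz2 were compared with their levels in Nos2+Cxcl9 low macrophages. The cut in each type was the largest of these shares. In NK cells it was that of C1qa, at 4.17% (WT) and 5.05% (CD94-KO), with Lyz2 at 2.43% and 3.24%. There 0 members were at or below the cut, taken as a share of their own low macrophage level. In neutrophils the cut was that of Lyz2, at 22.9% and 51.4%, and 7 of 31 and 5 of 32 members were at or below it. In plasmacytoid dendritic cells (pDC) the cut was 2.33% and 3.31%, and 5 of 31 and 7 of 32 members were at or below it. In B cells it was 3.92% and 8.19%, with 7 and 2 members at or below it, so low levels in these types are near background.

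Promoter sequences were examined first, because both kinds of element named above can be read directly in them. RefSeq promoter windows of build GRCm38.p6, each 300 bases from 250 before to 50 after a start site, were found for 23 of the 32 members; Gbp4, Gbp6, Gbp8, Gbp9, Iigp1, Batf2, Nlrc5, Ciita and Parp14 had none. ISRE-like letters (GAAA, any 2 bases, GAAA), searched on both strands, were present for 11 of the 23 (47.8%) and for 3.99% of all 27025 genes with a window. The GAS letters (TTC, any 3 bases, GAA), which read the same on both strands, were also present for 11 of the 23 (47.8%), against 9.55% of all genes. Both were in the same window for 6 members (Gbp5, Gbp7, Igtp, Irgm2, Tgtp1 and Tgtp2), which is 26.1% of the 23 against 0.540% of all genes. Such matches are letters only and show no binding.

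The 4 immunity-related GTPases with both elements are shown because the pair has the same layout in each, a GAS match (first capitals) whose first base lies 11 bases before the first base of the ISRE-like match (second capitals). All are written 5′ to 3′ on the gene's strand.
Igtp: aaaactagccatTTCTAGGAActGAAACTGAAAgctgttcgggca
Irgm2: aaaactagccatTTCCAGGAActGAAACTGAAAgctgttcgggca
Tgtp1: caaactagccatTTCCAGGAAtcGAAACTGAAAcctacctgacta
Tgtp2: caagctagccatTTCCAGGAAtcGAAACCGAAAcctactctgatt
These stretches lie at chr11:58199499-58199543 (plus strand, upstream of Igtp in GENCODE M21), chr11:58214890-58214934 (plus strand, in an intron of Irgm2), chr11:48992302-48992346 (minus strand, in an intron of Tgtp1 and, on the other strand, of Olfr56) and chr11:49064261-49064305 (minus strand, upstream of Tgtp2 and in an intron of Olfr56 on the other strand). The Igtp and Irgm2 stretches were identical at 44 of 45 bases and those of Tgtp1 and Tgtp2 at 37 of 45, while Igtp and Tgtp2 shared 32.

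The next stretches come from members whose levels are compared below, and the capitals again mark the matches. Gbp2, Gbp3, Irgm1 and Socs1 held the ISRE-like letters alone, read as TTTC, any 2 bases, TTTC where the match is on the other strand. Gbp3, Irgm1 and Socs1 each held a pair of overlapping matches. Irf1 and Icam1 held the GAS letters alone, and Gbp7 held 2 GAS matches before 1 ISRE-like match.
Gbp2: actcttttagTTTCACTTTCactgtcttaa
Gbp3: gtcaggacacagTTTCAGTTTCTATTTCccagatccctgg
Gbp7: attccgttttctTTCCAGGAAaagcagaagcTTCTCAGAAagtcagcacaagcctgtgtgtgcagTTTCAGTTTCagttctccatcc
Irgm1: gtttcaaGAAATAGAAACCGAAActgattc
Socs1: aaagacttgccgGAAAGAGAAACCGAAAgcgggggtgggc
Irf1: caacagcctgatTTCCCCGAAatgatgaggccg
Icam1: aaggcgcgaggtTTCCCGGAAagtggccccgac
Their positions are chr3:142620594-142620623 (plus strand, Gbp2, with 22 of 30 bases in a non-coding part of an annotated exon), chr3:142559987-142560026 (plus, Gbp3), chr3:142530218-142530304 (plus, Gbp7), chr11:48871428-48871457 (minus, Irgm1, in a non-coding part of an annotated exon), chr16:10785592-10785631 (minus, Socs1), chr11:53769912-53769944 (plus, Irf1) and chr9:21015886-21015918 (plus, Icam1). Apart from Gbp2, Irgm1 and 1 base of the Gbp3 stretch, these lie outside annotated genes.

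The members differed widely in where they were highest, and no single cell type led for all of them. Summed over the 32 genes, the level was highest in mature regulatory dendritic cells (mregDC) in both libraries, at 10223 CPM (95% Poisson interval 9988 to 10462) in WT and 10450.4 CPM (10256 to 10647) in CD94-KO. Intervals here and below cover counting error only and say nothing of variation between mice. The lowest sums were those of B cells in WT, at 2889 CPM, and of the non-immune gate in CD94-KO, at 2416 CPM. In Nos2+Cxcl9 high macrophages the sums were 7987 and 8937 CPM, and in NK cells 4478 and 4915 CPM. A sum is led by its most abundant members: in high macrophages of the WT library Pim1 held 15.3% of the members' UMIs, Gbp2 12.2% and Psmb8 10.5%. In mregDC of WT Psmb8 held 16.7%, Irf8 15.1% and Psme2 14.6%. The guanylate-binding proteins summed to 727 and 760 CPM in mregDC, below 1629 and 1919 CPM in high macrophages. For the immunity-related GTPases the sums were 206 and 249 CPM in mregDC, below 492 and 671 CPM in high macrophages.

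**Figure D1:**
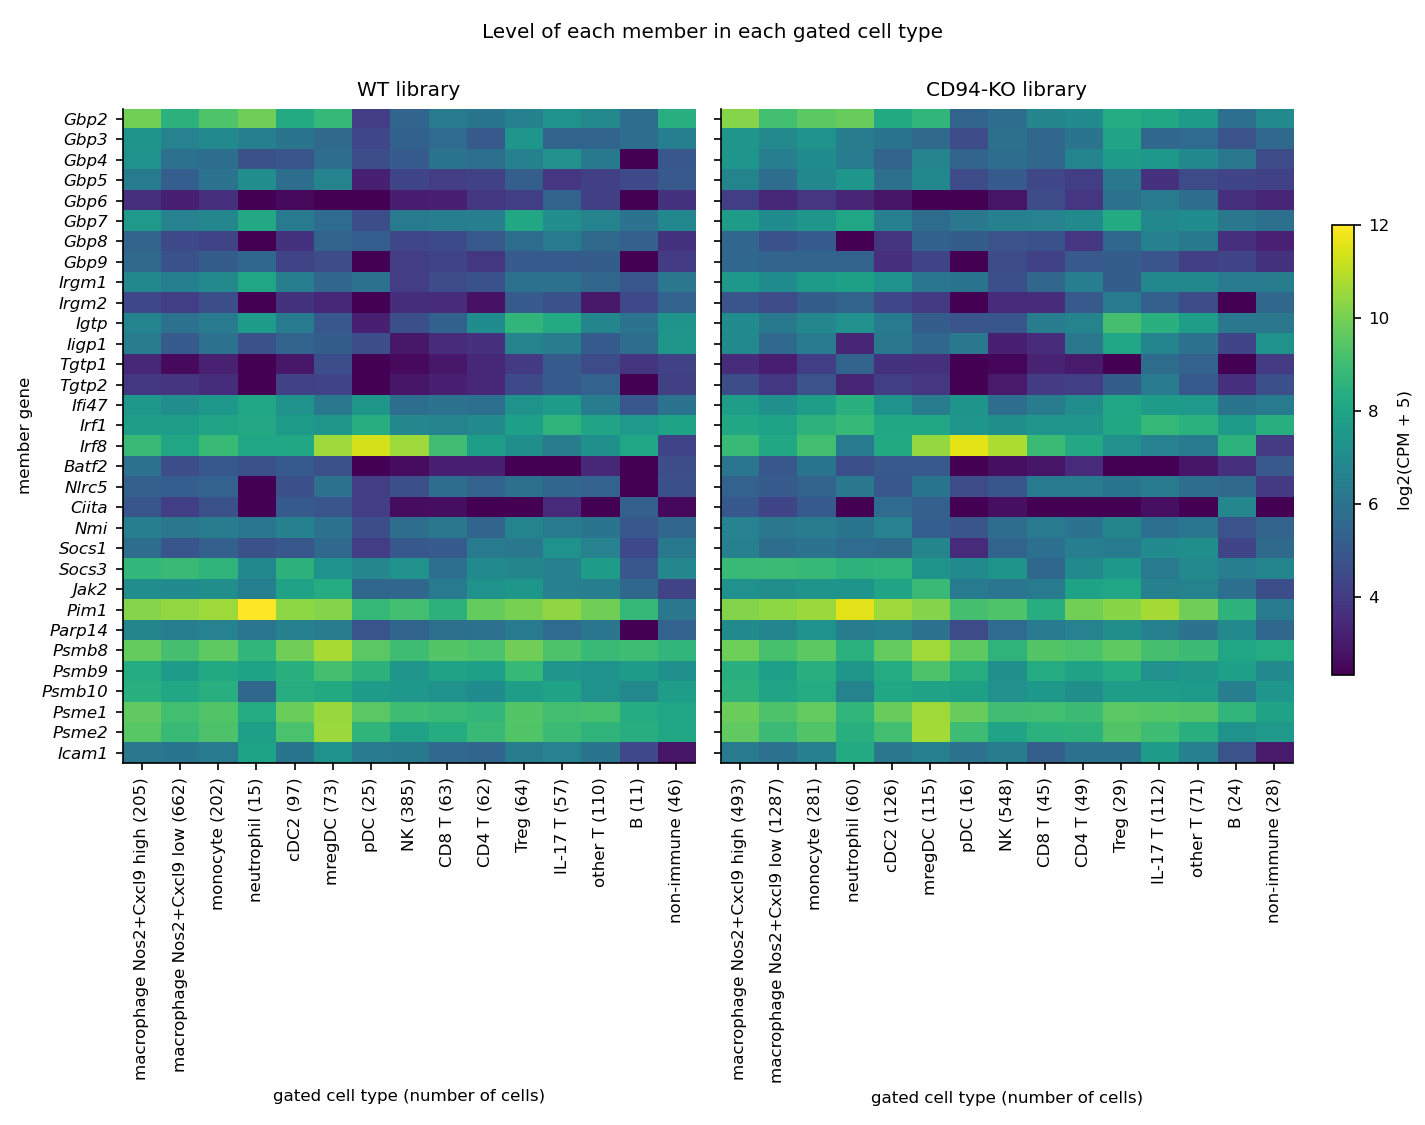
Level of each of the 32 members (rows, ordered by role) in 15 gated cell types (columns, with the number of cells) in the WT and CD94-KO libraries; colour is log2(CPM + 5). Irf8 stands out in pDC, mregDC and NK cells, Pim1 in neutrophils, the proteasome genes in mregDC and Gbp2 in macrophages and neutrophils.

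**Figure D2:**
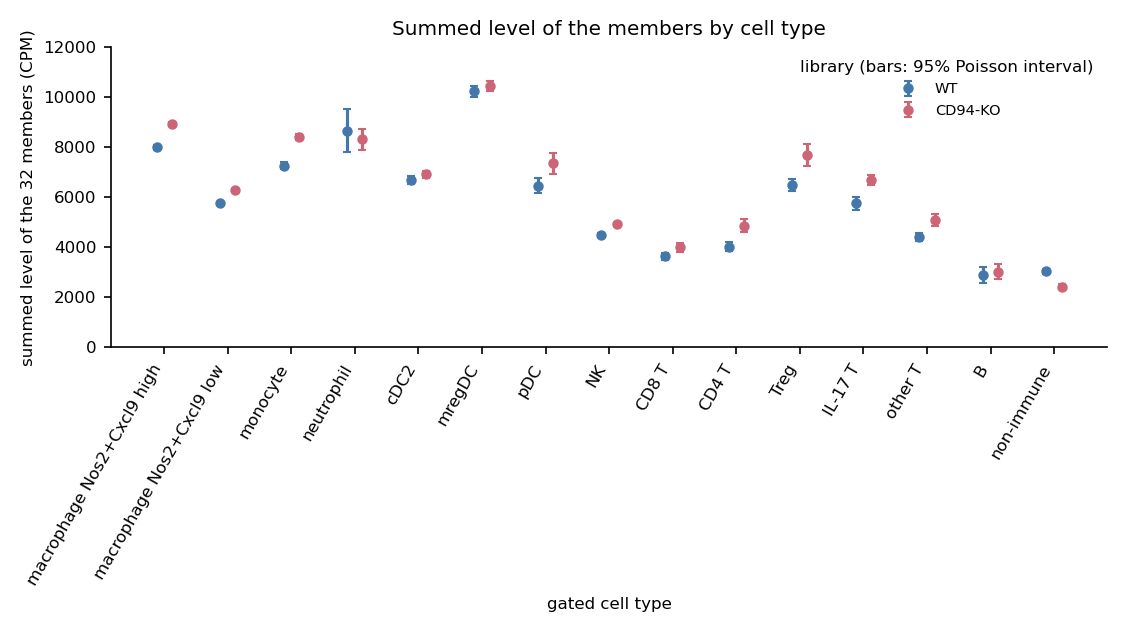
Summed level of the 32 members in CPM (vertical axis) by gated cell type (horizontal axis) in the WT and CD94-KO libraries, with 95% Poisson intervals that cover counting error only. The points of mregDC are the highest in both libraries, and the CD94-KO point is above the WT point in 13 of 15 types.

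Among the guanylate-binding proteins, Gbp2 was the most abundant in myeloid cells. Its level was 975 CPM in WT and 1203 CPM in CD94-KO high macrophages, 953 and 847 CPM in neutrophils (15 and 60 cells), 634 and 749 CPM in monocytes, and 40.0 and 50.6 CPM in NK cells. The order of high macrophages and neutrophils was not separable by counting error in WT, but was in CD94-KO. Neutrophils held only 46166 UMIs of all genes in WT and 190157 in CD94-KO, so their levels rest on few UMIs for most members. Gbp3, a further member of the chromosome 3 cluster, was highest in the gate for regulatory T cells (Treg), at 165 and 244 CPM. This gate took T cells with at least 1 UMI over Foxp3, Il2ra, Ikzf2 and Ctla4, before the CD8 and CD4 gates were applied. It does not require Foxp3, so T cells that are not regulatory can be in it. Gbp5, known for promoting inflammasome activity, was highest in neutrophils, at 130.0 and 163 CPM. Intervals of the highest and the second type overlapped for Gbp3 in WT and for Gbp5 in both libraries. Gbp7 stood at 282 and 258 CPM in neutrophils and 272 and 299.9 CPM in Treg, with overlapping intervals in both libraries. Gbp8 was highest in IL-17 T cells, at 74.7 and 89.3 CPM, and Gbp9 in high macrophages, at 45.9 and 43.2 CPM. The intervals of the highest and the second type overlapped for both genes in each library. Gbp6 was at 37.4 and 73.0 CPM in IL-17 T cells and at most 12.9 CPM in any other WT type, but in CD94-KO it was also at 56.2 CPM in Treg, with overlapping intervals. In all, 74.6% of the 60-base words in the last 500 bases of its transcript also occur in other genes of the chromosome 5 cluster, so its counts are uncertain.

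The immunity-related GTPases were spread over myeloid and T cells. Irgm1, a regulator that guards the cell's own membranes from the effector GTPases, was highest in neutrophils, at 259.9 and 221 CPM, then in monocytes, at 113 and 191 CPM. It was lowest in NK cells, at 11.8 and 20.6 CPM. The neutrophil and monocyte intervals overlapped in CD94-KO. Igtp (also known as Irgm3) was highest in Treg, at 414 and 562 CPM, followed by IL-17 T cells at 299 and 352 CPM, above the 97.0 and 121 CPM of high macrophages. The Treg and IL-17 T cell intervals overlapped in WT. The effector GTPase Iigp1 stood at 96.2 and 262 CPM in Treg, 78.7 and 119.5 CPM in high macrophages and only 2.73 and 4.07 CPM in NK cells. In the non-immune gate Iigp1 was at 170.2 and 154 CPM. Ifi47 was highest in neutrophils, at 259.9 and 347 CPM, with intervals that overlapped those of the second type in both libraries. Irgm2 did not pass 74.96 CPM in any type. Tgtp1 and Tgtp2, near-identical neighbours that share all 60-base words in the last 500 bases of their transcripts, did not pass 71.4 CPM in any type, and the split of reads between them is uncertain.

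The regulators of transcription ranged from Irf8, with large differences between types, to Irf1, with small ones. Irf8, a factor needed for dendritic cell and monocyte development, stood at 2624 and 3099.7 CPM in pDC, 1543 and 1404 CPM in mregDC and 1540 and 1796 CPM in NK cells, and at 14.2 and 11.5 CPM in the non-immune gate. Irf1 varied less, from 94.97 CPM in CD8 T cells to 392 CPM in IL-17 T cells of the WT library and from 135 CPM in NK cells to 442 CPM in neutrophils of the CD94-KO library. Ciita, the master regulator of MHC class II genes, was highest in B cells, at 34.2 and 107 CPM, and in type 2 conventional dendritic cells (cDC2), at 28.0 and 46.6 CPM, with overlapping intervals. The B cell levels rest on fewer than 20 Ciita UMIs over both libraries. No Ciita UMI was found in CD4 T cells, Treg, other T cells or neutrophils of either library. Batf2, an interferon-induced partner of AP-1 factors, was highest in high macrophages, at 57.3 and 64.9 CPM, and had no UMI in pDC, Treg or IL-17 T cells of either library. Its high macrophage and monocyte intervals overlapped in CD94-KO. Nlrc5, the regulator of MHC class I genes, did not pass 74.2 CPM in any type. Nmi, an interferon-induced protein, was highest in Treg, at 98.3 and 99.95 CPM, with intervals that overlapped those of the second type in both libraries.

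Of the feedback and signalling genes, Pim1, a kinase induced by cytokine signals, was the most abundant member in neutrophils, at 4029 and 3055 CPM. Socs3, better known as an inhibitor of interleukin 6 signalling, was highest in Nos2+Cxcl9 low macrophages, at 465 and 477 CPM, with an interval that overlapped that of high macrophages in CD94-KO. Socs1 was highest in IL-17 T cells of WT, at 146 CPM, and in other T cells of CD94-KO, at 135 CPM, with overlapping intervals between these types. Jak2 was highest in mregDC, at 317 and 457 CPM. Parp14, an ADP-ribosyltransferase, was highest in high macrophages of WT (101 CPM) and monocytes of CD94-KO (148 CPM), each overlapping the second type. Among the proteasome genes, Psmb8, Psmb9, Psme1 and Psme2 were highest in mregDC of both libraries, with Psmb8 at 1702 and 1559.6 CPM. Psmb10 was highest in high macrophages, at 350.2 and 363 CPM. In WT the intervals of the highest and the second type overlapped for Psmb9 and Psmb10. Counts of Psme2 are uncertain too, since 50.3% of the words at its 3′ end also occur in Psme2b. Icam1, the ligand of the integrin LFA-1, was highest in neutrophils, at 238 and 299.8 CPM, followed by mregDC in WT and IL-17 T cells in CD94-KO. The intervals of the highest and the second type overlapped in both libraries.

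Pairs of proteasome genes followed each other across the 15 types, with a median correlation of log2(CPM + 5) over 10 pairs of 0.74 in WT and 0.80 in CD94-KO. The median over 28 pairs of guanylate-binding proteins was 0.44 and 0.55, over 21 pairs of immunity-related GTPases 0.45 and 0.48, and over 15 pairs of transcription regulators 0.02 in both. Points share a library, and types differ in depth and cell number, so these values only describe the heat map.

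Within macrophages, the members were higher in cells that held at least 10 UMIs of Nos2 and Cxcl9 together than in cells below that number, and this was seen in each library on its own. In WT, 205 of 867 macrophages were high (23.6%, exact Clopper-Pearson interval 20.9 to 26.6), and in CD94-KO 493 of 1780 (27.7%, 25.6 to 29.8). Among the 774 and 1609 macrophages with at least 5000 UMIs, thinned to that number, 17.1% and 20.6% were high. Nos2 stood at 239 and 509 CPM in the high cells and Cxcl9 at 3548 and 3418 CPM, so the split is mainly one by Cxcl9. High cells were somewhat deeper than low cells, with medians of 12172 against 10053 UMIs in WT and 11490 against 9720 in CD94-KO.

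Of 32 measured members, 17 were at least 1.5-fold higher in high than in low macrophages of the WT library and 0 were lower, where 5.93% of all 9593 measured genes were higher and 9.08% lower by that size. In the CD94-KO library the counts were again 17 higher and 0 lower, against 5.19% and 9.68% of 10427 genes. The median difference in log2(CPM + 5) over the members was 0.58 in WT and 0.60 in CD94-KO, and over all genes -0.02 and -0.04. Nos2 and Cxcl9 are themselves interferon gamma targets and not among the members. With a split on Nos2 alone, which left 26 and 122 high cells, 10 members were higher in each library. The share of all genes past that size was not counted for the Nos2 split, so its count has no reference. With the main split the summed level was 1.39 times as high in the high cells of WT and 1.42 times in CD94-KO.

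The guanylate-binding proteins differed most as a family, with all 8 past 1.5-fold in WT and 6 of 8 in CD94-KO. Gbp2 stood at 975 CPM in high and 367 CPM in low macrophages of WT, a ratio of 2.66 (2.52 to 2.80), and at 1203 and 537 CPM in CD94-KO, a ratio of 2.24 (2.17 to 2.32). Gbp4 stood at 149.9 and 56.7 CPM in WT (ratio 2.64) and 165 and 83.1 CPM in CD94-KO (ratio 1.99). In both of these genes the low cells of CD94-KO lay above the low cells of WT. Gbp9 had ratios of 2.06 (1.63 to 2.61) and 1.17 (1.003 to 1.36), intervals that do not overlap; its level in the high cells was similar, 45.9 and 43.2 CPM, and in the low cells 22.3 and 37.0 CPM. A Gbp2 UMI was found, after thinning to 1000 UMIs, in 55.1% of high and 23.1% of low cells of WT and in 63.3% and 32.2% of CD94-KO. Without thinning these shares were 93.7%, 63.1%, 96.1% and 68.4%, and in NK cells, which have little of the gene, 4.70% and 5.54% of thinned cells had a Gbp2 UMI, at medians of 6774 and 5604 UMIs before thinning.

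Among the immunity-related GTPases, 3 of 7 passed 1.5-fold in WT and 4 of 7 in CD94-KO. Iigp1 had the same size of difference in both, 78.7 against 29.0 CPM in WT (ratio 2.72, 2.25 to 3.29) and 119.5 against 44.6 CPM in CD94-KO (ratio 2.68, 2.41 to 2.99). Igtp had ratios of 1.68 and 1.70, while Irgm1 had 1.30 and 1.39. Tgtp1 had 5.78 (2.25 to 16.6) in WT, from 16 and 7 UMIs, and 1.79 in CD94-KO. The regulators split evenly: Batf2 (2.91 and 2.49), Ciita (2.01 and 1.78) and Irf8 (1.78 and 1.68) passed in both libraries, and Irf1 (0.992 and 1.12), Nlrc5 (1.08 and 1.27) and Nmi (1.26 and 1.42) in neither.

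The feedback and signalling genes differed little, with a median ratio of 1.07 in each library. Socs1 stood at 49.7 and 25 CPM in high and low cells of WT (ratio 1.99) and at 87.8 and 51.9 CPM in CD94-KO (ratio 1.69). Jak2 had ratios of 1.07 in both, and Socs3 (0.907 and 0.972) and Pim1 (0.893 and 0.913) were slightly lower in high cells. The proteasome genes were all higher, by 1.30 to 1.63 in WT and 1.44 to 1.64 in CD94-KO. Icam1 stood at 67.7 and 62.3 CPM in WT and 74.3 and 55.9 CPM in CD94-KO.

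**Figure D3:**
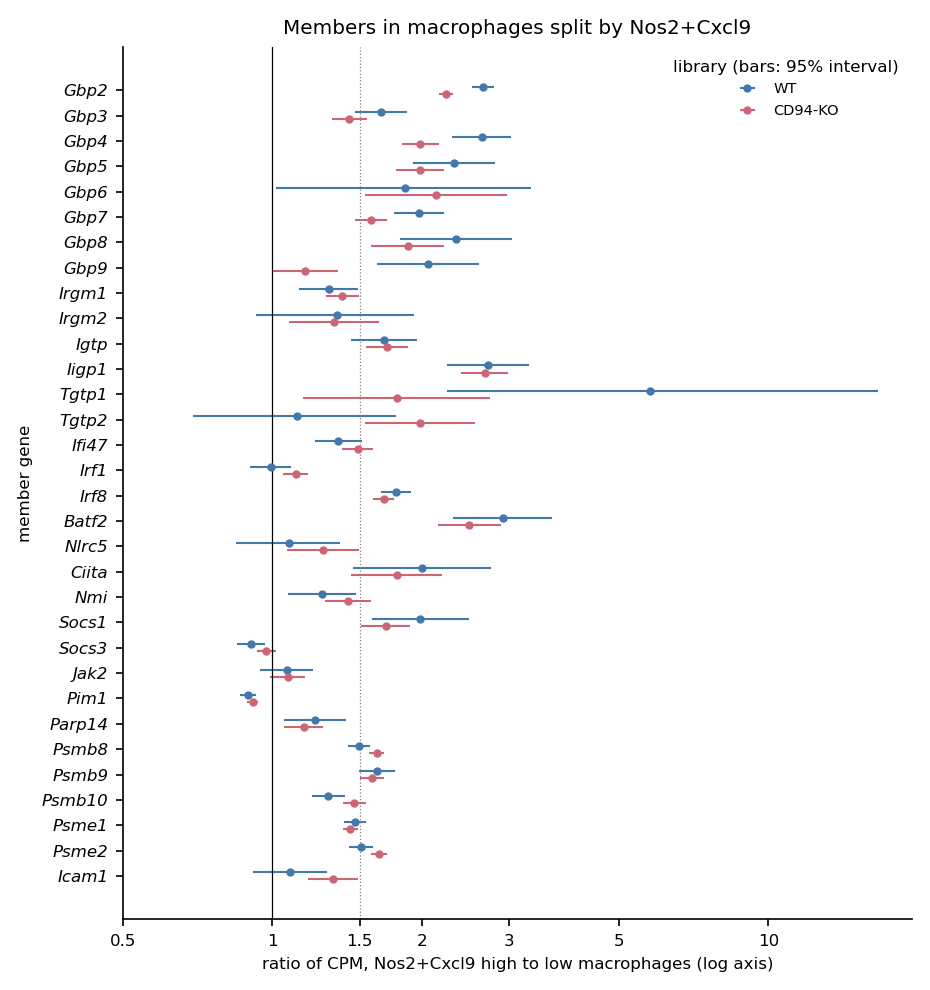
Ratio of CPM in Nos2+Cxcl9 high to low macrophages (horizontal log axis) for each member (vertical axis) in the WT and CD94-KO libraries, with 95% conditional binomial intervals that cover counting error only; lines mark 1 and 1.5. Most points lie right of 1 in both libraries, while Irf1, Socs3, Jak2 and Pim1 lie near it.

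In steps of the Nos2 and Cxcl9 UMIs in a cell (0, 1 to 4, 5 to 9, 10 to 19, 20 to 49, and 50 or more), the summed level of the members was 5597, 5706, 6769.9, 6375, 8425 and 8607 CPM in WT. It was 6071, 6386, 7243, 7998, 8828 and 9655 CPM in CD94-KO. The CD94-KO value lay above the WT value in each of the 6 steps, and in WT the step from 10 to 19 UMIs lay below the one before it. The guanylate-binding proteins went from 608 to 1984 CPM between the first and last step in WT and from 886 to 2196 CPM in CD94-KO, and the immunity-related GTPases from 319 to 557 CPM and from 389 to 741 CPM. Just outside the threshold, with 8 or 9 UMIs, the summed level of all members was 7016 CPM in 19 WT cells and 7901 CPM in 35 CD94-KO cells. Just inside it, with 10 or 11 UMIs, it was 7366 CPM in 17 and 7979 CPM in 35 cells, so the threshold divides a gradient.

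**Figure D4:**
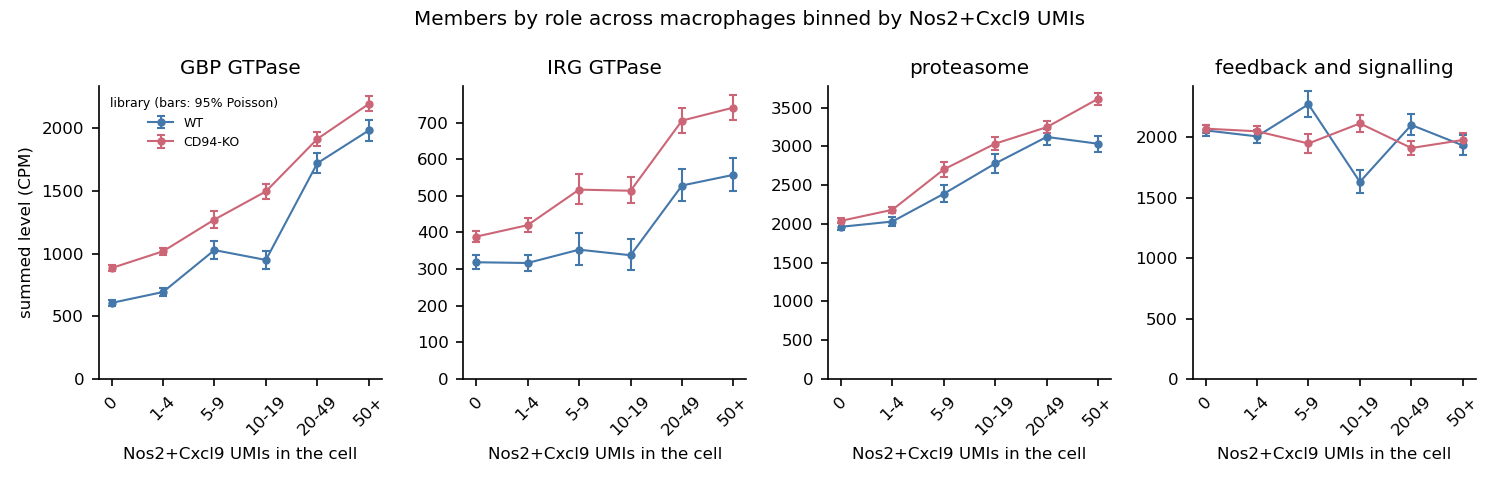
Summed level in CPM (vertical axes, each from 0) of 4 groups of members in macrophages binned by their Nos2 and Cxcl9 UMIs (horizontal axis), WT and CD94-KO libraries, with 95% Poisson intervals. GBP GTPase, IRG GTPase and proteasome sums are higher in the last bin than in the first in both libraries; the feedback and signalling sum, led by Pim1, shows no such slope.

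Beside the members, the 10 other genes with the largest ratio, taken as the smaller of the 2 libraries' ratios, were Ccl5, Ly6i, Serpina3g, AW112010, Cfb, Klrb1b, Anpep, Il18bp, Ly6a and Cnn3. They were taken from genes with at least 200 UMIs over high and low cells together and at least 50 CPM in the high cells of each library, a choice that favours genes higher in the high cells. Ccl5, a chemokine, led with 673 against 112 CPM in WT (ratio 6.02) and 1011 against 169 CPM in CD94-KO (ratio 5.98). Of a further list of interferon gamma pathway genes, 12 of 34 measured in WT and 13 of 35 in CD94-KO were at least 1.5-fold higher in the high cells, and 0 were lower. The receptor gene Ifngr1 was not among them and stood at 186 against 232 CPM and 171 against 234 CPM. Of 17 type I interferon response genes, 2 were higher and 1 lower in WT, and 3 and 0 in CD94-KO, with medians of 0.27 and 0.12 on the log2 scale. Over all genes 5.93% were higher and 9.08% lower in WT, and 5.19% and 9.68% in CD94-KO.

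Between the libraries, the members were somewhat higher in CD94-KO than in WT in most cell types. The largest number past 1.5-fold was in monocytes, 12 of 32 measured, against 9.54% of all genes there. In CD4 T cells it was 9 of 23, a similar share of the measured members, against 15.6% of all genes. The summed level was higher in CD94-KO in 13 of 15 types, in 11 of them with an interval that leaves out 1, and lower in neutrophils (ratio 0.961, 0.861 to 1.08) and in the non-immune gate (0.794, 0.755 to 0.836). After TMM scaling, which corrects for differences in composition, it was higher in 11 of 15. The ratios were 1.12 (1.10 to 1.14) in high macrophages, 1.09 (1.08 to 1.11) in low macrophages, 1.16 (1.13 to 1.19) in monocytes and 1.10 (1.07 to 1.12) in NK cells, the last becoming 1.01 after TMM scaling. That scaling lowered all log2 differences by 0.12 in NK cells and 0.10 in CD8 T cells. In the other types the shifts were smaller, and upward in pDC (0.03), the non-immune gate, high macrophages and neutrophils. All types come from the same pair of libraries, so they are not independent. With 1 library per group, a difference in genotype, in the mice and in the preparation cannot be told apart.

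In macrophages, monocytes and NK cells the ratios were larger for the sums of the GTPase families than for that of the proteasome genes, a difference between roles that was not tested. For the guanylate-binding proteins the summed levels were 684 CPM in WT and 969 CPM in CD94-KO low macrophages (ratio 1.42, 1.37 to 1.46), 1629 and 1919 CPM in high macrophages (1.18, 1.14 to 1.22), 1024 and 1377 CPM in monocytes (1.34, 1.26 to 1.43) and 227 and 322 CPM in NK cells (1.42, 1.30 to 1.56). For the immunity-related GTPases the ratios were 1.28, 1.36, 1.44 and 1.14 in the same order. The 5 proteasome genes had sums that differed less, with ratios of 1.06, 1.11, 1.06 and 0.912. In CPM, though, the proteasome genes differed more than either family in high macrophages, from 3006 to 3336 CPM, and in CD8 T cells their ratio (1.11) was close to that of the guanylate-binding proteins (1.09). In cDC2 and mregDC the guanylate-binding protein sums were near level, with ratios of 1.04 (0.928 to 1.16) and 1.05 (0.935 to 1.17).

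In high macrophages, 5 of 32 measured members were at least 1.5-fold higher in CD94-KO and 0 lower, where 5.59% of all genes were higher and 7.17% lower. An interval that also left out 1 was found for 4 members higher and 0 lower, against 2.25% and 3.72% of all genes. The 4 were Irgm1 (111 against 174 CPM, ratio 1.57, 1.39 to 1.79), Iigp1 (78.7 against 119.5 CPM, 1.52), Tgtp2 (9.67 against 19.2 CPM, 1.98) and Socs1 (49.7 against 87.8 CPM, 1.77, 1.47 to 2.14). Gbp6 had an interval that held 1. With each cell weighed equally 3 members were higher in high macrophages, and with doubled gate thresholds 8 in low macrophages. Irgm1 and Iigp1 in high macrophages went under 1.5-fold with doubled thresholds, Irgm1 also with each cell weighed equally and Iigp1 also with no doublets removed by score. In low macrophages 5 of 32 were higher and 0 lower, against 4.63% and 5.2% of all genes, and all 5 had an interval that left out 1, against 2.24% higher and 2.81% lower over all genes. These were Socs1 (25 against 51.9 CPM, ratio 2.07, 1.76 to 2.46), Gbp9 (22.3 against 37.0 CPM, 1.66), Gbp5 (31.8 against 49.3 CPM, 1.55), Iigp1 (29.0 against 44.6 CPM, 1.54) and Tgtp1, which rested on 7 and 49 UMIs. Gbp2 stayed under the size, at 367 against 537 CPM (ratio 1.46, 1.40 to 1.53). Socs1 and Iigp1 were thus past 1.5-fold in both macrophage groups, but Iigp1 in the low one went under it with each cell weighed equally. The median log2 difference of the members was 0.15 in high and 0.24 in low macrophages, and that of all genes -0.01 and 0.00.

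In monocytes, 12 of 32 measured members were higher by size and 0 lower, against 9.54% and 6.4% of all genes, with a median log2 difference of 0.31 against 0.04. For 11 of the 12 the interval left out 1, against 3.93% of all genes higher and 2.66% lower. Gbp4 stood at 51.9 CPM in WT and 126 CPM in CD94-KO (ratio 2.42, 1.86 to 3.19), Batf2 at 26.3 and 62.3 CPM (2.37, 1.63 to 3.52) and Gbp5 at 59.7 and 110.1 CPM (1.84, 1.43 to 2.40). The other 8 with an interval that left out 1 were Gbp7, Gbp8, Irgm1, Tgtp1, Tgtp2, Irf1, Socs1 and Parp14. Irf1 stood at 249 and 382 CPM (ratio 1.54) and Irgm1 at 113 and 191 CPM (ratio 1.69). Under TMM scaling or DESeq2 size factors Irf1 and Gbp7 went under 1.5-fold, which left 10 of the 12, and doubled gate thresholds took Gbp7, Irgm1 and Parp14 under it. None of the 5 proteasome genes passed 1.5-fold, with Psmb8 at 776 and 746 CPM.

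**Figure D5:**
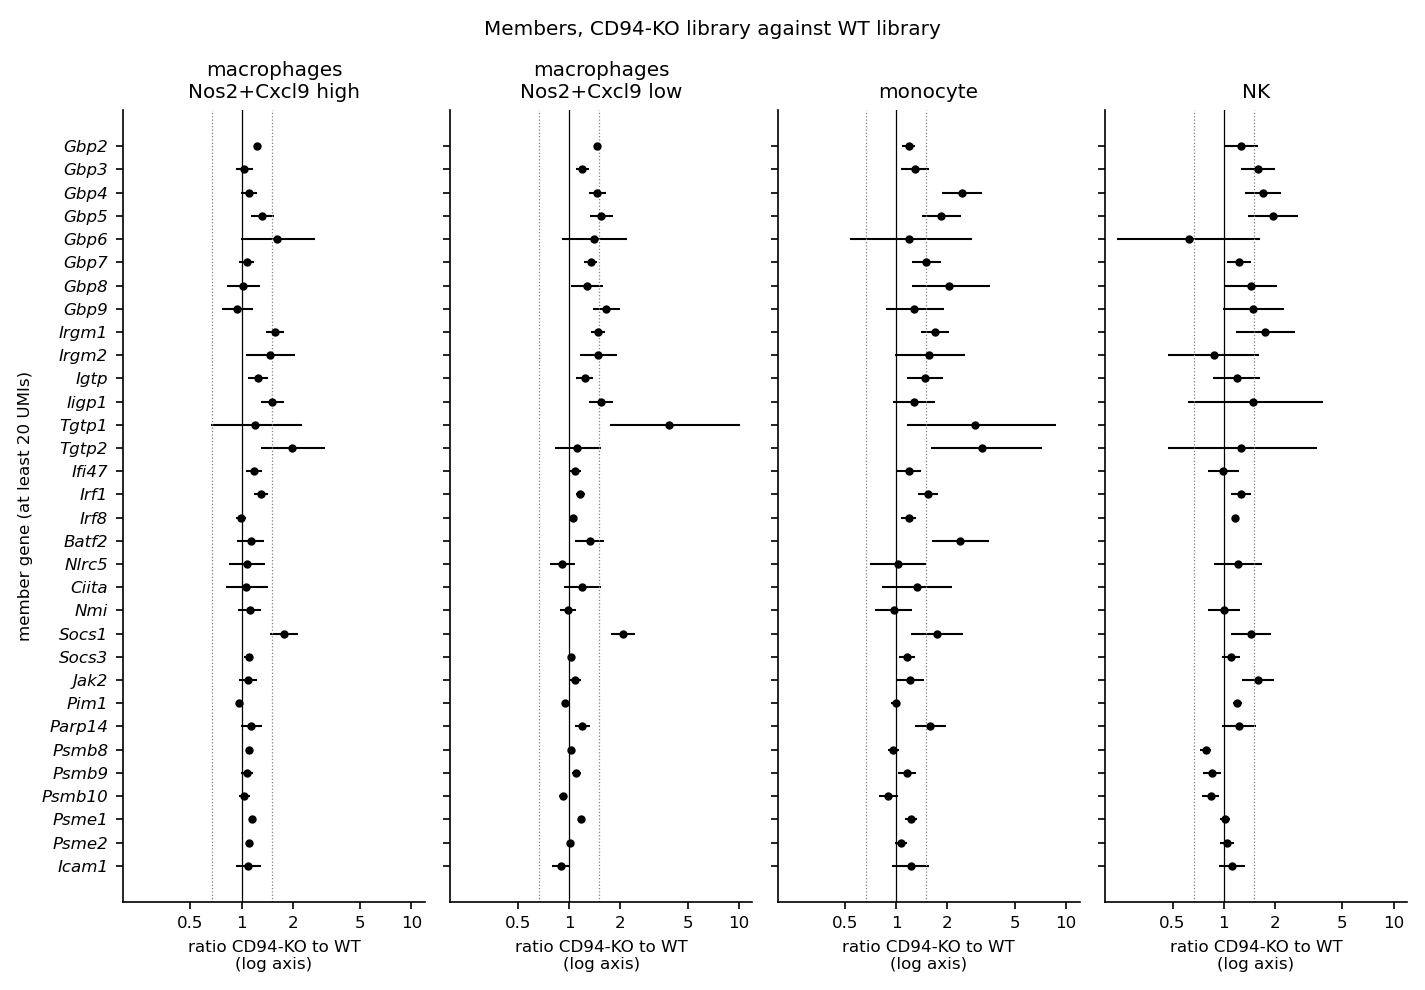
Ratio of CPM in the CD94-KO library to the WT library (horizontal log axes) for each member with at least 20 UMIs (vertical axis) in high and low macrophages, monocytes and NK cells, with 95% conditional binomial intervals that cover counting error only; dotted lines mark 1.5-fold in either direction. More points lie past 1.5-fold on the higher side in monocytes (12) than in the other 3 types (5 each). Over all genes the shares were 9.54% in monocytes, 5.59% and 4.63% in high and low macrophages and 10.6% in NK cells.

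In NK cells, 5 of 29 measured members were higher by size in CD94-KO and 1 lower, against 10.6% and 3.64% of all genes. The 5 had intervals that left out 1, as did 6.16% of all genes on the higher and 1.61% on the lower side. These were Gbp3 (34.9 against 55.2 CPM, ratio 1.58), Gbp4 (30.6 against 52.1 CPM, 1.70), Gbp5 (15.5 against 30.0 CPM, 1.94, 1.39 to 2.75), Irgm1 (11.8 against 20.6 CPM, 1.74) and Jak2 (40.9 against 65.1 CPM, 1.59, 1.29 to 1.97). The gene lower by size was Gbp6, on 12 and 9 UMIs, with an interval that held 1. Psmb8 was at 499.9 CPM in WT and 391 CPM in CD94-KO. The median log2 difference was 0.22 for the members and 0.09 for all genes, and 0.11 for the members after TMM scaling, under which 3 members in place of 5 were higher by size, without Gbp3 and Jak2. Ifng itself stood at 149.7 and 349 CPM in NK cells and 475 and 804 CPM in CD4 T cells, and at 213 and 179 CPM in CD8 T cells. It was lower in CD94-KO in other T cells, at 127 and 46.6 CPM (ratio 0.368, 0.209 to 0.617). In the CD94-KO library 10 cells held 45.3% of the Ifng UMIs of NK cells and 94.2% of those of CD4 T cells.

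In dendritic cells some members were higher and others lower in CD94-KO. In cDC2, 6 of 30 measured members were higher and 1 lower, against 12.1% and 6.45% of all genes. For 4 higher and 0 lower members the interval left out 1, against 4.99% and 2.32%. These were Irgm1 (84.0 and 151 CPM, ratio 1.80), Iigp1 (37.3 and 68.8 CPM, 1.84), Socs1 (26.1 and 45.9 CPM, 1.75) and Ciita (28.0 and 46.6 CPM, 1.67). In mregDC, 4 of 30 were higher and 3 lower, against 13.7% and 8.8%, so neither share was far from that of all genes. All 7 had intervals that left out 1, against 5.48% of all genes higher and 3.32% lower. Socs1 stood at 44.1 and 102 CPM (ratio 2.30, 1.53 to 3.55), Gbp4 at 49.8 and 94.9 CPM (1.91), Irf1 at 169 and 273 CPM (1.61) and Irgm1 at 41.2 and 65.5 CPM (1.59). The lower ones were Nmi, at 58.3 and 32.3 CPM, Icam1, at 151 and 91.1 CPM (ratio 0.604, 0.454 to 0.804), and Tgtp1 on 14 and 8 UMIs. With each cell weighed equally Gbp4, Irf1 and Irgm1 in mregDC and Socs1 in cDC2 went under 1.5-fold. In pDC (25 and 16 cells), 1 of 13 measured members was higher and 1 lower, against 10.7% and 15.7%. The lower one was Irf1, at 318 and 167 CPM, with an interval that left out 1, as for 4.25% of all genes, against 0 members and 3.4% of all genes on the higher side.

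In T cells the numbers of cells were small and a few cells held most UMIs of a gene. In CD4 T cells (62 and 49), 9 of 23 measured members were higher by size and 0 lower, against 15.6% and 11% of all genes. For 8 of the 9 the interval left out 1, against 6.04% of all genes higher and 3.13% lower. Gbp2 stood at 63.6 and 121 CPM (ratio 1.90, 1.16 to 3.13), Jak2 at 151 and 238 CPM (1.58) and Ifi47 at 53.7 and 130 CPM (2.42). In the CD94-KO library 10 cells held 71.8% of the Gbp2 UMIs and all of the Iigp1 UMIs, a gene with 4 and 22 UMIs. Gbp3, Gbp4, Irgm1 and Nlrc5 also had intervals that left out 1.

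In Treg (64 and 29 cells), 9 of 26 were higher and 1 lower, against 15.6% and 16.3%. With intervals that left out 1 there were 7 and 0, against 5.61% and 3.9%. Gbp2 stood at 89.9 and 312 CPM (ratio 3.47, 2.26 to 5.35), with 86.0% of the CD94-KO UMIs in 10 cells. Gbp4, Irgm2, Iigp1, Ifi47, Jak2 and Socs3 also had intervals that left out 1. All CD94-KO UMIs of Irgm2 and Iigp1 (12 and 42) and 80.0% of those of Ifi47 lay in 10 of the 29 cells. In IL-17 T cells (57 and 112 cells), 9 of 29 were higher and 0 lower, against 15.4% and 8.9%, and 6 of the 9 had intervals that left out 1, against 4.02% of all genes higher and 2.01% lower. Icam1 stood there at 93.4 and 198 CPM (ratio 2.12, 1.41 to 3.28), Gbp2 at 149 and 269 CPM (1.80) and Irgm1 at 56.0 and 109 CPM (1.94), and Gbp6, Tgtp2 and Parp14 were the others with such intervals.

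In CD8 T cells (63 and 45), 4 of 23 members were higher and 1 lower, against 16.2% and 8.3%, close to the shares of all genes. With intervals that left out 1 there were 3 and 0, against 6.22% and 2.39%, namely Irf1 at 94.97 and 159 CPM (ratio 1.67), Igtp at 34.8 and 78.3 CPM (2.25) and Irgm1 on 14 and 18 UMIs. In other T cells (110 and 71), 9 of 28 were higher and 3 lower, against 13.7% and 11.7%. With intervals that left out 1 there were 5 and 2, against 5.15% and 3.5%. There Gbp2 stood at 114 and 189 CPM, Igtp at 104 and 202 CPM (ratio 1.95), Ifi47 at 80.5 and 181 CPM (2.25) and Irgm1 at 40.3 and 109 CPM (2.70), with Gbp6 on 9 and 20 UMIs. Gbp2 in CD4 and other T cells, Irf1 in CD8 T cells and Jak2 in Treg went under 1.5-fold with each cell weighed equally. Lower in other T cells were Irf8, at 139 and 72.5 CPM (ratio 0.520), and Socs3, at 198 and 111 CPM (ratio 0.561).

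The remaining types were thin or apart from the sort. In neutrophils, 5 of 17 measured members were higher and 1 lower, against 20.8% and 15.9%. The interval left out 1 for 1 higher (Socs3, on 5 and 72 UMIs) and 1 lower (Irf8, on 12 and 14 UMIs), against 4.72% and 5.89%. In B cells, 0 of 8 were higher and 2 lower, against 28.2% and 19.9%, and by the rule with intervals the counts were the same, against 14.3% and 11.6%. The lower ones were Psmb8, at 504 and 259.7 CPM, and Psme2, at 325 and 153 CPM. In the non-immune gate, 1 of 28 was higher and 7 lower, against 10.6% and 9.72%. With intervals that left out 1 there were 0 and 6, against 4.26% and 3.42%. Gbp2 stood there at 342 and 116 CPM (ratio 0.339, 0.273 to 0.418), and the 10 richest cells held 91.0% and 90.1% of the UMIs. Gbp3, Gbp5, Gbp7, Igtp and Socs1 were also lower, while Nlrc5 had an interval that held 1.

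Followed across types, Irgm1 was above 1 in 12 of the 14 types where it was measured, with a median ratio of 1.64 and 9 types past 1.5-fold with an interval that left out 1. Socs1 was above 1 in 10 of 12 types, with a median of 1.59. Jak2, the kinase that SOCS1 inhibits, was above 1 in 14 of 14, from 1.03 in CD8 T cells to 1.82 in neutrophils, and Irf1 in 14 of 15, with a median of 1.36. Counts of types above 1 are before TMM scaling. That scaling lowered log2 differences by 0.10 in CD8 T cells, which takes Jak2 there below 1. Psme1, a subunit of the proteasome activator PA28, was above 1 in 13 of 15 but did not pass 1.34 in any. By contrast Psmb8 was above 1 in 6 of 15 and below 1 in 9, with a median of 0.916, and Pim1 in 7 and 8. Psmb10 was above 1 in 7 of 15 types and Gbp9 in 3 of 9. From 48.0% (pDC) to 63.5% (NK cells) of all genes were above 1 in a type. The members named here are a selection, and types above 1 were not counted for other genes. The non-member list of the pathway had 0 of 35 genes past 1.5-fold in either direction in high macrophages, 2 higher of 35 in low macrophages, 3 higher of 34 in monocytes and 2 higher of 33 in NK cells, with 0 lower in each. Over all genes 5.59%, 4.63%, 9.54% and 10.6% were higher in these types in the same order, so this list's counts were near or below those shares. Type I interferon response genes had 7 higher and 0 lower of 17 in monocytes, with a median log2 difference of 0.32. In NK cells they had 1 higher and 0 lower of 13, near the share of all genes. In CD4 T cells all 3 measured were higher, against 15.6% of all genes. The summed level of the list there was 1149 and 2781 CPM (ratio 2.42, 2.18 to 2.69), beside the members that were higher there. In IL-17 T cells 0 of 6 were higher and 3 lower, against 15.4% and 8.9% of all genes. The part of type I signals in the members' differences was not tested.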

How the data were processed

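Per the file headers, the deposited counts are UMI counts per gene and barcode made with Cell Ranger 5.0.0. Per the submitters' processing notes the genome build was mm10 and Seurat 4.0 was used; the deposited matrices hold raw counts. Per the labels' protocols each library was live CD45+ cells of 5 mice, prepared with droplet-based 3′ chemistry. There was 1 library per group, so no test was run and p-values are not given.

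Barcodes with at least 500 UMIs, 300 genes and under 10% mitochondrial UMIs were kept (4571 WT, 4765 CD94-KO). Scrublet (through scanpy 1.11.5) called 1 and 0 doublets by its own threshold, which does not work as a filter. The top 4% by doublet score in each library (183 and 191 cells) were therefore taken out. Barcodes that passed gates of several lineages were left out, apart from those of the T and NK gates alone that passed a T cell subtype gate. The libraries shared 8 barcode sequences, 4 of them among kept cells. Gates were set on the UMIs of marker genes per cell, with thresholds from 1 to 15 chosen after the data were seen; type 1 conventional dendritic cells and mast or basophil cells had under 10 cells in 1 library and were left out. UMIs were summed per type and divided by the type's total (CPM). Levels have exact Poisson, ratios exact conditional binomial and shares exact Clopper-Pearson intervals, all at 95%. A gene was measured with at least 20 UMIs over both sums, and a size call means at least 1.5-fold; log2 differences use CPM + 5. Ratios do not use the 5. TMM scaling came from edgeR 4.0.16 and size factors from DESeq2 1.42.0. The functions were tested on simulated data.

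The members and lists were chosen with earlier results of these data known. Members were named in a type where they were past 1.5-fold with an interval that left out 1 or among the 8 highest there; non-members were the 10 with the largest smaller-of-both macrophage ratio. Promoter windows are RefSeq's, positions in genes are from GENCODE M21. Each alternative setting was computed for the results it applies to, not for all. One result is not reported here.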

Additional observations from a re-analysis of the deposited data

Results flagged for a closer look

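For 10 members the ratio of CD94-KO to WT was at least 1.5-fold in 1 direction in some cell types and in the other direction in at least 1 type, each with a counting interval that left out 1. The share of all genes that meet this rule was not counted, so the number 10 is not a result about the members. The difference between types was not tested, since each type has 1 library per group and all types share the same pair of libraries.

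In 6 of the 10 the opposite direction was found in the non-immune gate, whose 46 and 28 cells lacked most Ptprc. Gbp2 had ratios of 1.90 in CD4 T cells, 3.47 in Treg, 1.80 in IL-17 T cells and 1.66 in other T cells, and 0.339 in the non-immune gate. Gbp3 had 1.58 in NK cells and 2.22 in CD4 T cells, and 0.507 in the non-immune gate. Gbp5 had 1.55 in low macrophages, 1.84 in monocytes and 1.94 in NK cells, and 0.492 in the non-immune gate. Gbp7 had 1.51 in monocytes and 0.499 in the non-immune gate, but under TMM scaling or DESeq2 size factors monocytes went under 1.5-fold, and no other type was higher by size with such an interval. Igtp had 2.25 in CD8 T cells and 1.95 in other T cells, and 0.426 in the non-immune gate. Socs1 had 1.77 in high macrophages, 2.07 in low macrophages, 1.73 in monocytes, 1.75 in cDC2 and 2.30 in mregDC, and 0.655 in the non-immune gate.

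The other 4 differed among immune types. Tgtp1 had ratios of 3.86 in low macrophages and 2.92 in monocytes and 0.381 in mregDC, all on fewer than 50 UMIs per library. Irf1 had 1.54 in monocytes, 1.61 in mregDC and 1.67 in CD8 T cells, and 0.524 in pDC. Socs3 had 3.50 in neutrophils and 1.67 in Treg, and 0.561 in other T cells. Icam1 had 2.12 in IL-17 T cells and 0.604 in mregDC.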

How the results depend on the processing

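No paired analysis was possible because each group has 1 library. With 1 library per group, mice, preparation and genotype cannot be told apart, and intervals cover counting error only. Gates left many shallow cells unassigned, and ratios on fewer than 20 UMIs per pair were not called by size. The order of cell types by level had no such minimum. The cause of the shifts below was not tested unless named.

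The summed ratio of CD94-KO to WT in high macrophages was 1.09 (for 1.12), and 3 members (for 5) were higher, with each cell weighed the same. In low macrophages, gate thresholds doubled gave 1.13 (for 1.09) and 8 higher members (for 5). In monocytes the sum was 1.09 with doubled gates, 1.12 with TMM scaling and 1.12 with DESeq2 size factors (for 1.16). In NK cells it was 1.01 with TMM scaling and 1.01 with DESeq2 size factors (for 1.10), with 3 higher members under each (for 5). Members lower in NK cells (1) became 0 with doubled gates, 2 with no minimum of UMIs and 2 with each cell weighed the same.

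For the macrophage split the summed ratio in WT (1.39) was 1.46 at 20 UMIs, 1.45 at 10 per 10000 UMIs, 1.57 thinned to 5000 UMIs, 1.21 with Nos2 alone and 1.44 with each cell weighed the same. In CD94-KO (1.42) it was 1.40 at 5 UMIs, 1.46 at 10 per 10000 UMIs, 1.49 thinned, 1.27 with Nos2 alone, 1.44 with Cxcl9 alone and 1.44 with each cell weighed the same. Nos2 alone, which left 26 and 122 high cells, gave 10 higher members in WT and 10 in CD94-KO (for 17 and 17), and in WT turned Gbp6 to 0.874 and Tgtp1 to 0.993. Shares of all genes were not counted under the alternative settings. Removing no doublets by score, or requiring 1000 UMIs per cell, left all 12 summed ratios and counts as they were within counting error or 1.5 times.

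Without the 10 cells with the most UMIs of the gene, an alternative chosen after seeing the data, the Treg ratios of Irgm2 and Iigp1 became 0 and 0, and that of Ifi47 became 0.961. The cells left out were 10 of 29 in CD94-KO and 10 of 64 in WT, and they held all CD94-KO UMIs of Irgm2 and Iigp1, so these values are fixed by the choice of cells and show no direction.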
